A study of Mus musculus with 2 samples.

Results

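Collagen, laminin and integrin genes held 126 of the 26232 distinct ATAC-Seq peaks of day 5 cardiac progenitor cells (CPCs). A peak was counted when the symbol deposited with it, beside a signed distance to a transcription start site (TSS), was Col followed by digits, the letter a and digits, or began with Lama, Lamb, Lamc, Itga or Itgb and a digit. Such symbols belonged to 79 protein coding genes of the mouse RefSeq gene table, namely 44 collagens, 11 laminin chains and 24 integrin symbols, and 59 of them had at least 1 peak. Among the integrin symbols were 3 integrin binding proteins (Itgb1bp1, Itgb1bp2 and Itgb3bp) and the integrin-like gene Itgb2l. Integrin subunits named by a letter, such as Itgav, stood outside the choice.

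The CPCs came from E14 Tg(Nkx2-5-EmGFP) embryonic stem cells, a mouse line with an EmGFP reporter for the early heart factor Nkx2-5, kept on mitomycin-treated embryonic fibroblasts and listed as strain C57BL/6. The single group comprised 2 replicates from independent differentiations of this 1 line, both without knockdown, and their labels give directed differentiation with growth factors and name no sort. The methods describe a sort for GFP at day 5 in a protocol by hanging drops and, for RNA extraction, also in the directed protocol. Whether the ATAC-Seq cells were sorted is not stated. Isl1 knockdown cells named in the design of the series were not analysed here. Both replicates were represented by 1 shared list of intervals, so that depth was unknown, no value had a replicate error and no comparison of conditions was possible. Confidence intervals below are 95% Wilson intervals over genes or peaks and cover counting error only. A gene without a peak in such a list is not shown to be closed, and peak width depends on the peak caller and on depth as well as on the DNA.

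Collagens are triple helical matrix proteins, either fibrillar, as types I, III and V of heart valves and interstitium, or laid out as networks, as type IV of basement membranes. Laminins are trimers of an alpha, a beta and a gamma chain that form the second network of the basement membrane. Integrins are receptors of an alpha and a beta subunit that bind these proteins and link them to the cytoskeleton. In the developing heart the cardiac jelly and the basement membranes around myocardium and endocardium are built from such components.

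Sequences of mm9 are shown first for the start sites of 1 laminin trimer (Lama1, Lamb1 and Lamc1), of a laminin receptor subunit (Itgb1) and of 3 fibrillar collagens (Col1a1, Col1a2 and Col5a1), because start-site peaks were found in all 3 families. Each is the stretch of up to 150 bases before the exon nearest to the start site, on the strand of the gene. The last printed base lay 126 bases before the start site used for Col1a2, 61 before that of Lamb1 and 1 before the others. The Col1a2 stretch lay inside the annotated gene. They lay at chr17:68046455-68046604 on the plus strand for Lama1, chr12:31949949-31950098 (plus) for Lamb1, chr1:155179917-155180066 (minus) for Lamc1, chr8:131209404-131209553 (plus) for Itgb1, chr11:94797388-94797537 (plus) for Col1a1, chr6:4455370-4455492 (plus) for Col1a2 and chr2:27741795-27741944 (plus) for Col5a1. Capitals mark exact matches, on either strand, to the words searched for, which were the GC box GGGCGG, the CCAAT box, the TATA word TATAAA, the GATA word AGATAA, the TEAD word GGAATG, the AP-1 words TGACTCA as well as TGAGTCA, the words CTAATTG as well as CTAATGG of the homeodomain type of Isl1, the NKX words CACTTGA as well as CACTTAA and the SOX words ACAATGG as well as ACAAAGG. Words were counted independently and may share bases. The match is one of letters and shows no binding.
Lama1: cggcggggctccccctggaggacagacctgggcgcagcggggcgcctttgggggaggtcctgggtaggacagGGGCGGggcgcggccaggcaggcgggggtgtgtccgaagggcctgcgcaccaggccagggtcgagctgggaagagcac
Lamb1: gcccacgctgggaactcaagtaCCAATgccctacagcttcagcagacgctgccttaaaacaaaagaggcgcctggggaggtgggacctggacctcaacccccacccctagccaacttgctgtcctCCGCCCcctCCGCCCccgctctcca
Lamc1: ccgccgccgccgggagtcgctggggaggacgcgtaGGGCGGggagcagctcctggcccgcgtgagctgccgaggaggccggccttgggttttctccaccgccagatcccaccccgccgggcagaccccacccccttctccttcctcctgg
Itgb1: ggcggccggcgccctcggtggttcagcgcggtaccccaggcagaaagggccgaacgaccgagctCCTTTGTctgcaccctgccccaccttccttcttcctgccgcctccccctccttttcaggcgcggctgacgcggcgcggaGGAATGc
Col1a1: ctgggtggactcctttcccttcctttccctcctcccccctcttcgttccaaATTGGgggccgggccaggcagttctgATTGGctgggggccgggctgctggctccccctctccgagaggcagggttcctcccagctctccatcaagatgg
Col1a2: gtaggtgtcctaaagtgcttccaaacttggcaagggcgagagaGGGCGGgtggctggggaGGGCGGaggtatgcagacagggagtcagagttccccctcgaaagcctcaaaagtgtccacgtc
Col5a1: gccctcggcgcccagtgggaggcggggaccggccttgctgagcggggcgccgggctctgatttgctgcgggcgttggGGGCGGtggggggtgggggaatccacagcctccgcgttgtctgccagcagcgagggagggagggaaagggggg

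GC boxes stood in 5 of the 7 stretches, all but those of Itgb1 and Col1a1, and Col1a1 had 2 matches to CCAAT. None of the 7 stretches held TATAAA. Over the central 300 bp of all 46 member peaks within 1 kb of their TSS, the GC box was found in 28 (60.9%, 46.5 to 73.6%), against 66.6% of the 11726 other peaks of that class. CCAAT stood in 11 of the 46 windows (23.9%), against 27.3% elsewhere. TATAAA, the SOX words and the words of the Isl1 type were in none of the 46, with upper bounds of 7.71%. They were in 2.78%, 4.75% and 1.42% of the other peaks. GATA words were in 4.35% against 3.27%, TEAD words in 6.52% against 9.34%, AP-1 words in 2.17% against 2.33% and NKX words in 4.35% against 2.52%. The shares of the members thus lay near those of other start-site peaks.

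A further 3 sequences of 200 bases, all on the plus strand and centred on peaks away from start sites, are given because the widest collagen and laminin peaks and the most repetitive integrin peak are distal. They came from the widest distal collagen peak, in intron 2 of Col18a1 (chr10:76614096-76614295), the widest laminin peak, in intron 4 of Lamc3 (chr2:31760098-31760297), and an upstream peak of Itga6 (chr2:71615526-71615725). Capitals have the same meaning as before.
Col18a1: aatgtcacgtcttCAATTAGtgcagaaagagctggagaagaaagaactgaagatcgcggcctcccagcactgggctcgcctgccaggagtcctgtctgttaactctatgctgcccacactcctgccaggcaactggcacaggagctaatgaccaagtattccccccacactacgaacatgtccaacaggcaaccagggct
Lamc3: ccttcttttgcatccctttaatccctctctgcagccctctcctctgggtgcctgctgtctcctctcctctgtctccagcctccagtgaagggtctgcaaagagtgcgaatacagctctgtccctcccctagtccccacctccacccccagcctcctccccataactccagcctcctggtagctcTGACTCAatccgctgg
Itga6: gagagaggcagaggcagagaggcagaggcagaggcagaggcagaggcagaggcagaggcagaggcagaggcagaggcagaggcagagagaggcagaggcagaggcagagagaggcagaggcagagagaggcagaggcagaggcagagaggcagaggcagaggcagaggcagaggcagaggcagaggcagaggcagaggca

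The Col18a1 stretch held 1 word of the Isl1 type, and that of Lamc3 an AP-1 word. The Itga6 stretch is a tandem repeat with no match. Among the 80 member peaks beyond 1 kb of their TSS, the GATA word was found in 17 windows (21.2%, 13.7 to 31.4%), against 14.5% of 14380 other distal peaks, a value inside that interval. TEAD words were in 23.8% against 22.4%, SOX words in 13.8% against 11%, AP-1 words in 11.2% against 7.64%, NKX words in 6.25% against 5.71% and words of the Isl1 type in 3.75% against 4.54%. For each of these 6 words the value of other distal peaks lay within the interval of the members. GC box and CCAAT words, in 17.5% and 25.0% of the distal member windows, and TATAAA, in 5%, had values of 21.7%, 30.1% and 6.00% in the other peaks.

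Of the 79 genes, 59 (74.7%, 64.1 to 83.0%) had an assigned peak, whereas 62.5% of all protein coding genes did. Integrin symbols were covered most often, with 21 of 24 (87.5%, 69.0 to 95.7%), followed by laminins with 9 of 11 (81.8%, 52.3 to 94.9%) and collagens with 29 of 44 (65.9%, 51.1 to 78.1%), and the intervals of the 3 families overlapped. A peak within 1 kb of the assigned TSS, here called a start-site peak, was present for 45 of the 79 genes (57.0%, 46.0 to 67.3%), compared with 50.0% of all protein coding genes. All 9 laminin genes with a peak had one at the start site, while 10 collagen and 4 integrin genes had distal peaks only. Together 14 of the 59 members with a peak had distal peaks only, beside 2725 of 13683 protein coding genes with a peak. These shares describe the list and were not tested, and the members are also long genes, with a median span of 96.1 kb against 17.6 kb for all protein coding genes.

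**Figure D1:**
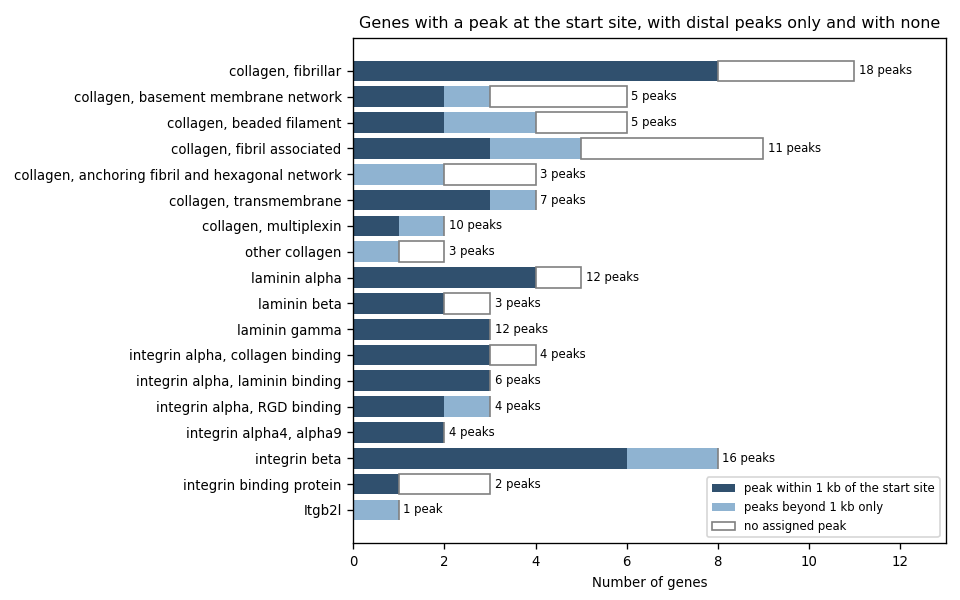
Number of genes per class of collagen, laminin and integrin genes (horizontal axis) that had a peak within 1 kb of the start site (dark), peaks beyond 1 kb only (light) or no assigned peak (white), with the number of peaks at the end of each bar. All 11 laminin chains either had a start-site peak or no peak, whereas 10 of the 29 collagens with a peak had distal peaks only. Among all protein coding genes with a peak, 2725 of 13683 had distal peaks only.

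By deposited distance, 46 of the 126 peaks (36.5%, 28.6 to 45.2%) lay within 1 kb of the TSS, against 44.9% of all peaks. The 3 families ranged from 30.6% in collagens over 37.0% in laminins to 45.9% in integrins. Beyond 10 kb lay 65 peaks (51.6%, 42.9 to 60.1%), against 41.4% of all peaks, with 16 of them beyond 50 kb and 4 beyond 100 kb. Measured instead from the nearest GENCODE TSS of the same gene, the share beyond 10 kb was 42.9%, and that measure was not computed for all peaks. Of the 80 peaks beyond 1 kb, 36 were upstream and 44 (55.0%) downstream, like the 55.8% downstream among all peaks.

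**Figure D2:**
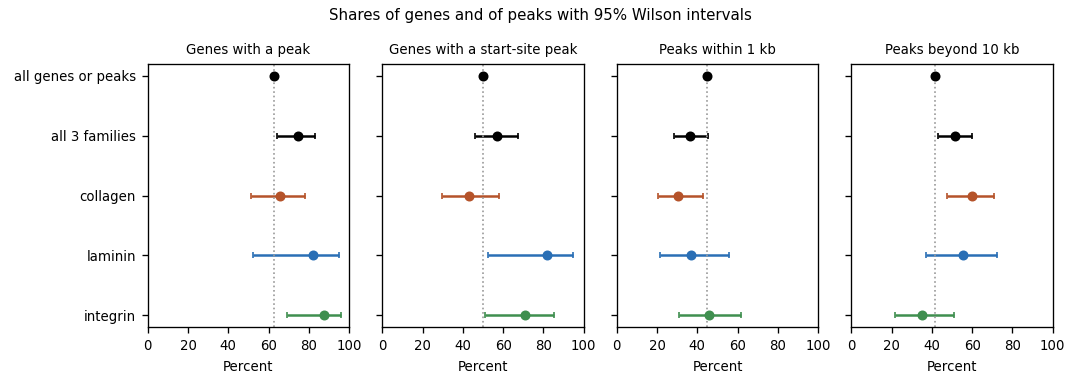
Percent of genes with a peak, of genes with a start-site peak, of peaks within 1 kb and of peaks beyond 10 kb, for all genes or peaks, the 3 families together and each family, with 95% Wilson intervals as bars and the value over all genes or peaks as dotted line. Collagens were lowest and integrins highest in the share of peaks within 1 kb, with overlapping intervals.

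The members with a peak had 2.14 peaks per gene on average, with 3 in laminins, 2.14 in collagens and 1.76 in integrins, against 1.71 over all genes with a peak, coding or not. A single peak was assigned to 28 genes and 2 or 3 peaks to 22. At least 4 peaks were assigned to 9 of the 59 genes (15.3%, 8.24 to 26.5%), against 7.62% of all genes with a peak, coding or not. Among them were Col18a1 with 8 peaks, Col5a1 with 6, and Col13a1, Col22a1, Itgb3, Itgb6, Lama3 and Lama5 with 4 each. Of those named, Itgb6 alone had no start-site peak. Genes with 4 or more peaks had a median span of 124 kb, those with 2 or 3 of 82.1 kb, those with 1 of 79.2 kb and those with none of 89.9 kb.

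**Figure D3:**
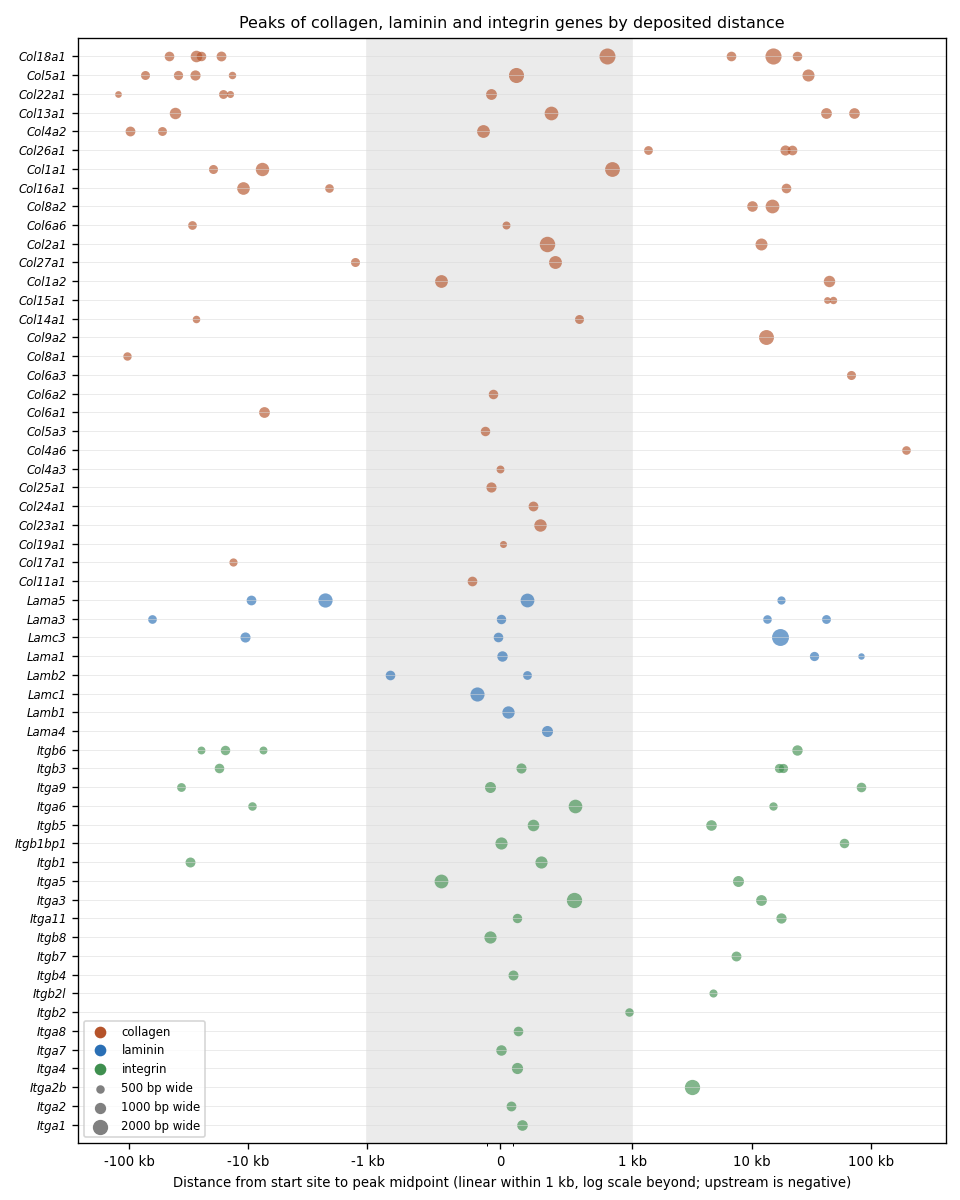
Signed distance from the start site to the midpoint of each of 118 peaks (horizontal axis, linear within 1 kb and logarithmic beyond) for 58 of the 59 genes with a peak (rows), with the area of each point proportional to peak width. The shaded band holds 45 start-site peaks. By deposited distance Col4a6 has the farthest peak, 197642 bp downstream, which lay 53400 bp from the nearest annotated start of that gene.

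Fibrillar collagens, which form the banded fibrils of connective tissue, all had a start-site peak where they had any peak, in 8 of 11 genes. That share was 72.7% (43.4 to 90.3%), against 50.0% of all protein coding genes. Col1a1, the alpha1 chain of type I collagen, had a start-site peak of 2363 bp (chr11:94797207-94799569) and upstream peaks of 1938 bp at −7609 bp and 885 bp at −19644 bp. Col1a2, the partner chain, had a start-site peak of 1766 bp (chr6:4454294-4456059) and a peak of 1414 bp at 44837 bp, past the end of the gene. Col2a1, the cartilage collagen also found in early heart mesenchyme, had 2583 bp at the start site and 1555 bp in intron 14. Thus both chains of type I collagen were represented at the start site and at distal sites.

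Col3a1 and Col5a2, the fibrillar chains of types III and V that lie side by side on chromosome 1, had no peak. The nearest peak was at −421582 bp from Col3a1, assigned to 4930521E06Rik, and at −292145 bp from Col5a2, assigned to Wdr75. Col5a1, by contrast, the chain that pairs with Col5a2 in type V collagen, had 6 peaks. They comprised a start-site peak of 2458 bp (chr2:27740837-27743294), 4 intergenic peaks of 606 to 1128 bp between −73041 and −13677 bp, and 1 of 1586 bp in intron 1 at 29843 bp. Chains of the same collagen type therefore differed in number from 0 to 6. Col11a1, Col24a1 and Col5a3 had only a start-site peak of 972 to 1045 bp each, Col27a1 had a start-site peak of 1801 bp with a neighbour 333 bp away, and Col11a2 had none.

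Type IV collagen genes lie in head to head pairs that share a promoter region. The start sites of Col4a1 and Col4a2, the chains of all basement membranes, are 21 bp apart in the annotation. A single peak of 1775 bp (chr8:11311793-11313567) covered both and was deposited under Col4a2, so Col4a1 counted as a gene without a peak. The 2 other Col4a2 peaks, at −52661 and −97365 bp, lay in introns of Col4a1. Col4a3 and Col4a4, of the kidney and lung type, have start sites 72 bp apart under 1 peak of 675 bp assigned to Col4a3. At Col4a5 and Col4a6, 1309 bp apart on the X chromosome, no peak covered the start sites. The only peak of the pair was 805 bp wide in intron 3 of Col4a6. It lay 197642 bp from the assigned TSS and 53400 bp from the nearest annotated Col4a6 TSS. Of the 3 pairs, 2 thus had a shared start-site peak and 1 had none.

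Multiplexins are basement membrane collagens whose ends are released as fragments such as endostatin. Col18a1 had 8 peaks, among them a start-site peak of 2777 bp (chr10:76627079-76629855) and the widest collagen peak, of 2818 bp, in intron 2 (chr10:76612787-76615604). Its distances were counted from 2 start sites 52825 bp apart, and the peak at 24095 bp from the assigned TSS was at −182 bp from another annotated Col18a1 TSS. Col15a1, its relative, had 2 narrow intronic peaks of 498 and 594 bp and none at the start site.

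Beaded filament collagens of type VI had a start-site peak at Col6a2 (981 bp) and Col6a6 (689 bp) only. Col6a1 had 1 peak of 1260 bp at −7328 bp and Col6a3 1 peak of 889 bp in coding exon 37 at 68120 bp, whereas Col6a4 and Col6a5 had none. The other Col6a6 peak, at −29893 bp, lay in an intron of Col6a5. Among transmembrane collagens, Col13a1, a collagen of cell contacts, had 4 peaks with 2033 bp at the start site, Col23a1 and Col25a1 had a single start-site peak each (1675 and 1118 bp), and Col17a1, of epithelial hemidesmosomes, had 1 distal peak of 731 bp. In the span of Col23a1, 5 more peaks were assigned to Phykpl.

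Fibril-associated collagens bind the surface of fibrils. They had start-site peaks at Col14a1, Col19a1 and Col22a1, distal peaks only at Col16a1 and Col9a2, and none at Col9a1, Col9a3, Col12a1 and Col20a1. The single Col9a2 peak was 2408 bp wide in coding exon 26, at −245 bp from another annotated start of the gene. For Col22a1, a collagen of muscle and tendon junctions, 2 of 4 peaks consisted largely of repeated sequence: 92.0% and 67.4% of the 32-base stretches in the peaks at −14132 and −16271 bp occurred more than once in the genome. Network collagens Col8a1 and Col8a2 had distal peaks only, at −103556 bp and at 10049 and 14751 bp, and Col7a1 and Col10a1 had none. The Col8a2 peak at 14751 bp, of 2050 bp, was centred 1015 bp downstream of another annotated start of the gene, which it covered. Col26a1 had 3 peaks, all in intron 1, and Col28a1 had none.

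Laminin alpha chains set the receptor binding of the trimer. Lama1, the embryonic chain, had a start-site peak of 1176 bp (chr17:68046030-68047205) and intronic peaks of 930 and 449 bp at 33406 and 82747 bp. Lama5, the widely used chain of later basement membranes, had a start-site peak of 2056 bp (chr2:179959333-179961388) and, 337 bp away, a peak of 2192 bp at −2257 bp, with 2 more at −9402 and 17770 bp. Lama4, of endothelial and muscle basement membranes, had only a start-site peak of 1324 bp (chr10:38685017-38686340). Lama3, an epithelial chain, had 965 bp at the start site and 3 intronic peaks of 800 to 851 bp.

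Lama2, the chain of mature striated muscle, had no peak within its span of 636 kb, and the nearest one was at −458451 bp and assigned to Ptprk. Of the beta chains, Lamb1 had 1 start-site peak of 1645 bp (chr12:31949395-31951039), Lamb2 had 2 start-site peaks of 1004 and 831 bp separated by 114 bp, the smallest gap between peaks of any member, and the epithelial chain Lamb3 had none. Lamc1, the gamma chain of most laminins, had a single peak of 2157 bp over its start site (chr1:155179013-155181169). All 3 chains of the trimer of Lama1, Lamb1 and Lamc1 thus had a start-site peak, as did those with Lama4 or Lama5 in place of Lama1. Such a peak was present for 50.0% of all protein coding genes, so these few chains are a description only.

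Lamc3, a further gamma chain, had 3 peaks, and its intronic peak at 17396 bp (chr2:31758649-31761746) was the widest of all members, at 3098 bp.

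**Figure D4:**
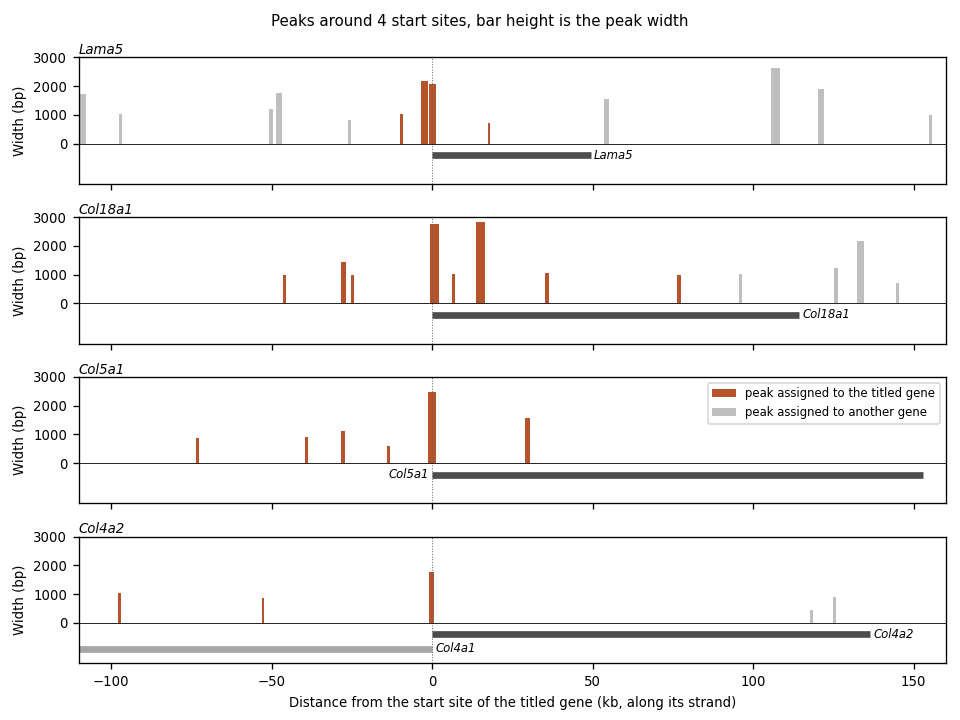
Peaks around the start sites of Lama5, Col18a1, Col5a1 and Col4a2, plotted by distance from the 5′-most annotated start site along the strand of the gene (kb), with peak width in bp as bar height, in colour where assigned to the titled gene and in grey otherwise. Gene bodies are drawn below, and all 3 Col4a2 peaks overlap the body of Col4a1, the start-site peak only in part.

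Integrin beta subunits all had a peak, in 8 of 8 genes (67.6 to 100%), against 62.5% of all protein coding genes. A start-site peak was present for 6 of them (75%, 40.9 to 92.9%), against 50.0%. Itgb1, the common partner of collagen and laminin receptors, had a start-site peak of 1607 bp (chr8:131209062-131210668) and an intergenic peak of 1077 bp at −30982 bp. Itgb3 had 4 peaks, with 1107 bp at the start site, 2 intronic peaks 337 bp apart near 17015 and 18269 bp, and 1 at −17681 bp within Myl4, which encodes atrial myosin light chain. Itgb5 had 1454 bp at the start site (chr16:33829276-33830729) and 1214 bp in intron 1, and Itgb4 and Itgb8 each had only a start-site peak (1078 and 1614 bp). Itgb6, an epithelial subunit, had 4 distal peaks of 673 to 1168 bp and none at the start site. Of the leukocyte subunits, Itgb2 had 1 peak of 785 bp centred 974 bp downstream, just inside the limit of 1 kb, and Itgb7 had 1 peak of 1056 bp in coding exon 3.

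Of the 12 alpha subunits named by a number, 11 had a peak, against 62.5% of all protein coding genes. The laminin binding subunits Itga3, Itga6 and Itga7 all had a start-site peak, of 2531, 2020 and 1190 bp, that of Itga3 being the widest integrin peak. Of the collagen binding subunits, Itga1, Itga2 and Itga11 had one, of 1220, 1042 and 958 bp, while Itga10, of cartilage, had no peak. Itga5, the fibronectin receptor subunit, had a start-site peak of 2062 bp (chr15:103196640-103198701) and a peak of 1302 bp in coding exon 2. Itga8 and Itga4 had 1 start-site peak each (1004 and 1355 bp). Itga9 had 3 peaks, at the start site (1309 bp) and at −36599 and 81828 bp, counted from start sites 104983 bp apart, and 3 more peaks in its span were assigned to Ctdspl. The platelet subunit Itga2b had 1 peak of 2524 bp in intron 5, 3170 bp downstream of the assigned TSS and 242 bp downstream of another annotated start of the gene.

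One integrin peak was almost wholly repetitive. The Itga6 peak at −9371 bp (chr2:71615231-71616020, 790 bp), whose central sequence is printed above, had the 6-base word GCAGAG 111 times, no CpG, and 89.3% of its 32-base stretches occurred more than once in the genome. Over all members 2.23% of such stretches did, against 5.70% in a sample of the other peaks, and 94 of the 126 member peaks held none. Only 3 member peaks were above 50%, this one and the 2 of Col22a1. Without them Itga6 had 2 peaks and Col22a1 2. Their part in the counts of reads was not tested.

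Integrin binding proteins differ from subunits in that they act inside the cell. Itgb1bp1 had 1602 bp at the start site and a peak in Asap2, and Itgb1bp2 and Itgb3bp had none. Itgb2l had 1 intronic peak of 714 bp. Without the 3 binding proteins 20 of 21 integrin genes had a peak (95.2%, 77.3 to 99.2%), against 62.5% of all protein coding genes.

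Widths of member peaks ranged from 449 to 3098 bp, with a median of 1022 bp (840 to 1422 bp between quartiles), beside 1081 bp (835 to 1433 bp) for all peaks. Start-site peaks had a median of 1246 bp and distal ones of 975 bp, against 1326 and 911 bp over all peaks. Collagens gave 1272 and 1002 bp, laminins 1140 and 821 bp and integrins 1309 and 986 bp. These medians are given as a description and were not tested.

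**Figure D5:**
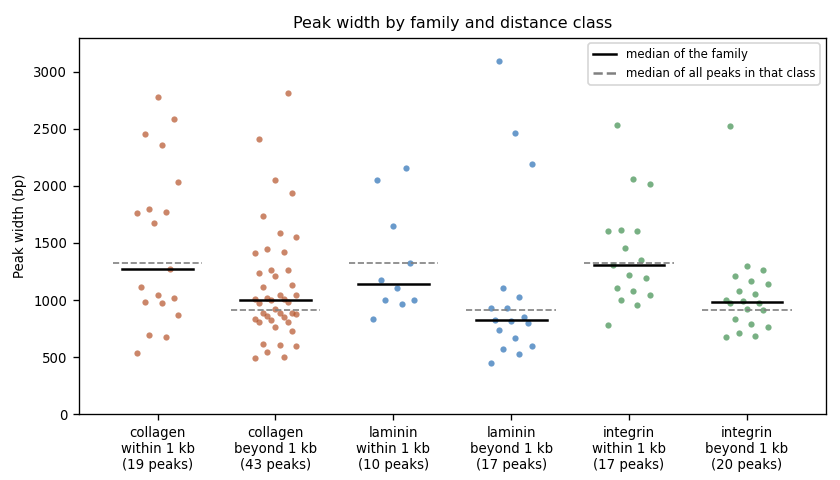
Width in bp of each member peak (points) by family and by position within or beyond 1 kb of the start site, with the family median (solid line) and the median of all peaks of that class (dashed line). The widest point, of 3098 bp, is the intronic Lamc3 peak, and start-site medians exceed distal ones in all 3 families.

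Distal peaks were set against the body of the gene they were assigned to. Of the 80 peaks beyond 1 kb, 45 were inside the gene they were assigned to, 8 inside another protein coding gene and 27 in neither. None was within 1 kb of the TSS of another protein coding gene. Assigning each peak to its nearest TSS would largely fix that count in advance. Within 1 kb of another annotated start of the own gene, of any biotype, lay 6 (7.5%, 3.48 to 15.4%). These positions were not counted for all distal peaks. Of the integrin peaks 15 of 20 (75.0%, 53.1 to 88.8%) were inside the own gene, of the laminin peaks 10 of 17 (58.8%, 36.0 to 78.4%), all in later introns than the first, and of the collagen peaks 20 of 43 (46.5%, 32.5 to 61.1%), and the 3 intervals overlapped. In all, introns held 37.3% (29.4 to 46.0%) of the 126 peaks against 22.2% of all peaks, intergenic sequence 19.8% (13.8 to 27.7%) against 28.2%, and coding exons 4.76% (2.20 to 10.0%) against 1.96%. Conversely, 34 of the 124 peaks that overlapped the span of a member, summed over members, carried the symbol of another gene, in 23 of the 79 spans. The part of gene span in these positions was not tested.

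Promoters were classed by CpG content, since CpG-rich promoters mostly carry open chromatin in any cell. In windows of 500 bp before and after the 5′-most coding TSS, 27 of 79 (34.2%) were CpG-rich (observed over expected CpG of at least 0.6 and GC content of at least 50%), against 47.3% of all protein coding genes. Of the 27 CpG-rich promoters 23 (85.2%, 67.5 to 94.1%) overlapped a peak, against 89.6% of all such promoters. Of the 52 CpG-poor ones 23 (44.2%, 31.6 to 57.7%) did, against 27.5% of all CpG-poor promoters, which lay below that interval. Col4a3 and Col4a4 were both counted among the 23 through 1 shared peak, and Col4a1 and Col4a2 likewise among the CpG-rich promoters. CpG-poor promoters with a peak included those of Col1a1, Col1a2, Lama3, Lama4, Lamb1, Lamb2, Itga1, Itga2, Itga4 and Itga7. Of these, Lamb1 and Itga7 lay just under the limit, with a ratio of 0.59. The Col1a2 window did not hold the start site used for its printed sequence. The 4 CpG-rich promoters without one were all of collagens, namely Col12a1, Col15a1, Col26a1 and Col8a2. Start-site peaks of members had a median CpG ratio of 0.55 (quartiles 0.44 and 0.65), against 0.69 in other start-site peaks, at the same median GC content of 58.6%.

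Genes that act with the 3 families were read from a list of 62 outside the rule. Of these 48 (77.4%, 65.6 to 86.0%) had a peak and 45 (72.6%) a start-site peak, against 62.5% and 50.0% of all protein coding genes. The counts by class, of 6 to 16 genes each, are read against the same shares. Among integrin subunits named by a letter, Itgav, the vitronectin receptor subunit, had a start-site peak of 1426 bp and the 5 leukocyte subunits Itgal, Itgam, Itgax, Itgad and Itgae had none. Of 16 other matrix genes 12 had a peak, including Fn1 (fibronectin), Nid1 and Nid2 (nidogens) and Hspg2 (perlecan), and Vtn, Dcn, Lum and Postn had none. Collagen processing genes had one in 13 of 15, with 3047 bp at Serpinh1, the collagen chaperone, and none at Lox and Loxl3. Adhesion adaptors and kinases had one in 11 of 12, led by Parva with 7 peaks, with none at Fermt3. Of 13 other receptors and proteases 11 had one, with 5 peaks at the collagen receptor Ddr1 and none at Ddr2 and Mmp14.

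The labelled cell type was set against defining genes of several cells. Peaks were assigned to 6 of 7 genes of cardiac progenitors, 29 in all, with start-site peaks at Isl1, Nkx2-5, Mef2c, Tbx5 and Tbx20 and none assigned to Hand2. Gata4 had 3 peaks. The nearest was 3724 bp wide and centred at −1036 bp, so it covered the start site but fell outside the limit of 1 kb. Genes of other cells also had peaks, 3 of 4 in endothelium, 3 of 4 in endoderm, 2 of 3 in pluripotent cells and 3 of 4 in fibroblasts, where Thy1, Pdgfra and Twist2 had start-site peaks and Postn none. With 62.5% of all protein coding genes having a peak, such shares of 3 or 4 genes are near the background and say nothing of whether those cells were present, and the interval of the cardiac progenitor genes (48.7 to 97.4%) also holds it. Endothelial, endodermal and fibroblast cells also make basement membrane or fibrillar collagens, and their part in the peaks of the 3 families was not tested.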

How the data were processed

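ATAC-Seq was performed on 2 replicates of day 5 CPCs. Per the methods, the authors mapped reads to mm9 with bowtie2, filtered them with samtools, removed duplicates with Picard 1.136, called peaks per replicate with MACS14 (no model, fixed shift), dropped blacklisted regions and kept peaks overlapping between replicates by at least 1 bp with bedtools 2.15. No correction for the Tn5 cut position beyond that shift is described, and assignment to the nearest TSS is stated for ChIP-Seq peaks only. The 1 deposited list has 6 columns, namely chromosome, start and end, the signed distance to the TSS in bp (recorded as a score, since the deposited values have no fixed range), a RefSeq accession and a symbol. It has no value per replicate, so depth is unknown and precision is limited to counting error.

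Distinct intervals (26232 of 26429 lines, 126 of 127 for members) were read with Python 3.11.15 and set on GENCODE M1 gene models and the NCBIM37 sequence, which is mm9. Of 126 member distances, 85 equalled that to an annotated TSS of the gene within 1 bp, and in 5 of 31 genes with several peaks (Col18a1, Itga3, Itga9, Itgb6 and Lama3) distances referred to more than 1 TSS. Genes without a peak and gene names came from a RefSeq table of GRCm38.p6, used for names only. Peaks of genes under older symbols were found through the accession. Named genes were those with at least 4 peaks, the widest and farthest peak of each family, gene pairs, a list of well known chains and receptors, and members with no peak. For 1 member and for the start-site sequence of another, results are not reported here, although both stay in the counts. Others, and the GC box, CCAAT and TATA words, the repeat counts and the CpG classes, were added after their values were seen. Uniqueness was counted over 32-base stretches, all in members and 10 per other peak. Members and lists were chosen with earlier results of these data known. Measures were tested on simulated data.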

Additional observations from a re-analysis of the deposited data

How the results depend on the processing

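Each value was recomputed under alternative settings, 83 in all. Over all members 23 of 31 stayed within the interval of the value or within 1.5 times the count, and for single families 41 of 52. Keeping peaks wider than the median of the list, by construction fewer and wider, gave 55 peaks, 48.1% of genes with a peak, 1.45 peaks per gene, 52.7% of peaks within 1 kb, 36.4% beyond 10 kb and a median width of 1586 bp. The share beyond 10 kb was 42.9% with distances to the nearest GENCODE TSS of the gene and 12.7% with a limit of 50 kb. Counting every line, a minimum width of 500 bp, leaving out integrin binding proteins, a limit of 2 kb and assignment by gene span with 5 kb before the TSS moved no value over all members. The list holds no caller score and no value per replicate, so a stricter threshold, another overlap between replicates and leaving out a replicate could not be computed. No paired analysis was possible because the samples form 1 group and share 1 list. Depth is unknown, which limits what can be said of genes without a peak and of widths.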
